A study of Mus musculus with 2 samples.

Results

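Gasdermins are proteins that open pores in the plasma membrane, and their genes were followed here in cells of normal mouse urothelium organoids. The 6 genes described were Gsdma, Gsdmc, Gsdmc2, Gsdmc3, Gsdmc4 and Gsdmd, of 31053 genes in the deposited gene list. They were taken by symbol, and Gsdmc4 was chosen by its level, as a leading gene of the differentiated library. Its difference between the libraries, and that of the near copies that share sequence with it, is therefore given as a description, with no test. The remaining mouse gasdermins (Gsdma2, Gsdma3, Gsdme and Pjvk) are given beside them.

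Organoids grown from the urothelium of C57BL/6 WT mice, 8 to 10 weeks old, were dissociated and profiled by droplet-based sequencing of transcript 3′ ends. One library (P) came from proliferative organoids (NMU-O-P) kept in complete medium. The other (D) came from differentiated organoids (NMU-O-D), whose medium lacked WNT3A and RSPO1 conditioned media, EGF, the TGF-β receptor inhibitor LY2157299 and Noggin. Neither group carried a transgene or a deletion, and the number of mice or cultures behind each library is not given in the sources used here. With 1 library in each group no difference between P and D could be tested against replicate spread, and the 95% intervals in brackets cover counting error only.

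Barcodes passed at over 800 detected genes and no more than 12% mitochondrial counts, which left 6818 of 8194 barcodes in P and 4896 of 6975 in D. They held a median of 3406 and 3228 unique molecular identifiers (UMIs, 1 for each captured transcript molecule), and 10 barcodes occurred in both libraries, 6 of them among kept cells. Levels are UMIs per 1000000 UMIs of a library (CPM), which in a 3′ assay are not divided by gene length. Epithelial markers (Epcam, Cdh1, Krt5, Krt8, Krt18) summed to 4557 CPM in P and 6793 in D, and the uroplakins, membrane proteins of the luminal umbrella cells of the bladder, to 20.5 and 1245 CPM. The fibroblast list held 53 UMIs in P and 1270 in D, of which Dcn gave 40 and 1234 and the collagen Col1a1 0 and 10. The leukocyte list held 32 and 416 UMIs, with the pan-leukocyte gene Ptprc at 1 and 2, and the erythroid list was at 0 in both.

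A gasdermin consists of a pore-forming N-terminal part and a C-terminal part that holds it in check. Proteases cut between them: inflammatory caspases act on GSDMD and the initiator caspase encoded by Casp8 on GSDMC. The freed N-terminal part inserts into the membrane, through which interleukins leave the cell and which may then rupture, a death called pyroptosis. Mice carry several Gsdmc genes side by side where humans have a single GSDMC, and these are best known from epithelia such as that of the intestine. Transcript levels say nothing of cleavage or of pores.

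The Gsdmc genes were close copies, so how far their reads could be told apart bears on every level below. All 4 lay on the minus strand of chromosome 15 (GRCm38), Gsdmc (ENSMUSG00000079025) at 63775968-63808759, Gsdmc2 (ENSMUSG00000056293) at 63824346-63845177, Gsdmc3 (ENSMUSG00000055827) at 63857724-63878558 and Gsdmc4 (ENSMUSG00000055748) at 63891264-63912297, a span of 136 kb. The pseudogenes Gsdmcl1 and Gsdmcl2 lie between them and are not in the gene list of the counts. Gsdmd (ENSMUSG00000022575) lay on the plus strand of the same chromosome at 75862327-75867408, and Gsdma (ENSMUSG00000017204) on chromosome 11 at 98664351-98677708. In aligned coding sequence Gsdmc2 and Gsdmc3 were identical at 97.1% of bases (1401 of 1443), each was 93.5% identical to Gsdmc4, and Gsdmc was 86.0% to 87.1% identical to the other three. Gsdmd shared only 44.6% to 45.2% of bases with any of them, and Gsdma 46.7% to 48.1%.

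The stretch of 75 coding bases in which Gsdmc2, Gsdmc3 and Gsdmc4 differed most is shown first, with capitals marking bases that differ from Gsdmc2. Reads from it could be assigned, but how many came from it was not counted. This stretch lies farther from the end that a 3′ assay reads than the stretch shown next. It begins at coding base 804 of Gsdmc, 795 of Gsdmc2 and Gsdmc3 and 801 of Gsdmc4.
Gsdmc: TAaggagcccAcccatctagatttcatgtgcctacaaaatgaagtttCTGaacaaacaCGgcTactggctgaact
Gsdmc2: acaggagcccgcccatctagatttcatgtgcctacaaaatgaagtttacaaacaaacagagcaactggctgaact
Gsdmc3: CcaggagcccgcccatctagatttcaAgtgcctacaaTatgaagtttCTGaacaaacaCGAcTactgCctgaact
Gsdmc4: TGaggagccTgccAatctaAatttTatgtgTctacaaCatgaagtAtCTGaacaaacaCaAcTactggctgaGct
Here Gsdmc3 differed from Gsdmc2 at 11 bases, Gsdmc4 at 16 and Gsdmc at 9.

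Close to the stop codon, nearer the end that a 3′ assay reads, the same genes were almost identical, and that stretch is shown with the same use of capitals. It begins at coding base 1317 of Gsdmc and 1314 of the other three.
Gsdmc: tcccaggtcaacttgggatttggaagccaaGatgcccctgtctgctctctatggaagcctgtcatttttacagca
Gsdmc2: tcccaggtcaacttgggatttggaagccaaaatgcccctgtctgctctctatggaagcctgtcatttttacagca
Gsdmc3: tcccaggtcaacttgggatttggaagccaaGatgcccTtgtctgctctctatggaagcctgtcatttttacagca
Gsdmc4: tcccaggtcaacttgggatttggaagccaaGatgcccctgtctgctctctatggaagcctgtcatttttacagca
Only 1 or 2 bases separated each gene from Gsdmc2 in this stretch.

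The second read of the libraries was 56 bases long, and reads that match several genes are not counted by the counting program. Within the last 500 bases of the annotated transcripts, 39.1% of 56-base stretches of Gsdmc2 (227 of 581) also occurred in another Gsdmc gene, against 27.2% for Gsdmc3, 26.1% for Gsdmc and 4.04% for Gsdmc4. No such stretch of Gsdmd or Gsdma occurred in another gene. Levels of Gsdmc, Gsdmc2 and Gsdmc3 may thus be too low by reads that were dropped, by more than that of Gsdmc4, and the split among the copies is uncertain. The shared stretches occurred only among the 4 Gsdmc genes, so their sum is the firmer value, apart from the reads dropped.

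Of the 6 genes, Gsdmc3 alone matched the RefSeq table of promoters used here (GRCm38.p6). The 250 bases before its start, chr15:63878559-63878808 on the minus strand, are shown because its transcripts were among those much higher in D, with capitals marking a TATA-like run that starts 29 bases before the gene.
Gsdmc3 promoter: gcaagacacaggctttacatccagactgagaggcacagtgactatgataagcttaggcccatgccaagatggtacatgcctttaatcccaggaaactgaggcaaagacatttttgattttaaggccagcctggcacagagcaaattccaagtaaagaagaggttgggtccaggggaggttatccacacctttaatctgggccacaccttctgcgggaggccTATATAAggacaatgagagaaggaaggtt
On both strands of this window 0 matches were found to TGANTCA (the AP-1 motif, in 6.75% of 32851 promoters). Nor were any found to AGATAA (a spelling of the motif of zinc finger factors of the GATA family, 9.99%) or to TGTTTAC (forkhead factors, 3.17%). The same held for AACCNGTT (grainyhead-like factors, 1.79%), TGGGAA (the Notch partner RBPJ, 21.6%), GGAATG (TEAD factors, 12.6%), the STAT6 motif (5.85%) and TATAAA (12.4%). The looser spelling TATANAA, set after the sequence was seen, matched once and was held by 10.4% of promoters. The window also holds TGATAA, a related spelling of the GATA motif that was not searched. The search therefore does not show that a GATA motif is absent. A match or its absence is a description of these letters and not of binding.

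Gsdmc2, Gsdmc3 and Gsdmc4 were far more abundant in D than in P, and Gsdmd was the reverse. Gsdmc2 stood at 9.11 CPM (8.00 to 10.3; 243 UMIs) in P and at 421 CPM (412 to 430; 8548 UMIs) in D, a log2 ratio of levels of 5.53 (5.35 to 5.72). Gsdmc3 stood at 1.69 CPM (1.23 to 2.26; 45 UMIs) and 139 CPM (134 to 144; 2824 UMIs), a log2 ratio of 6.37 (5.94 to 6.82). Gsdmc4 stood at 0.450 CPM (0.232 to 0.786; 12 UMIs) and 67.5 CPM (64.0 to 71.2; 1371 UMIs), a log2 ratio of 7.23 (6.42 to 8.19). The P value of Gsdmc4 rested on few cells, 1 of which held 5 of the 12 UMIs, and without the 5% of cells with the most UMIs the log2 ratio was 8.22 (6.99 to 9.84). The order of the levels, Gsdmc2 over Gsdmc3 over Gsdmc4, was the same in both libraries, while the ratio between libraries ran the other way.

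Gsdmc, whose symbol is that of the human gene, was barely detected. It had 0 UMIs in P and 16 UMIs in 16 cells of D (0.788 CPM), which is at least 7.01-fold higher than the level that 3 UMIs would give in P. Summed over the 4 genes, Gsdmc transcripts were at 11.2 CPM (10 to 12.6; 300 UMIs) in P and 628 CPM (617 to 639; 12759 UMIs) in D, a 55.9-fold ratio (49.8 to 62.9).

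Gsdmd, which encodes the executioner of inflammasome-driven pyroptosis, was at 16.3 CPM (14.8 to 17.9; 435 UMIs in 407 cells) in P and 2.41 CPM (1.79 to 3.19; 49 UMIs in 47 cells) in D. It was thus 6.76-fold lower in D (5.02 to 9.27). Gsdma, known from skin and its appendages, had 12 UMIs in P and 10 in D, too few to order the libraries (log2 ratio 0.13, -1.24 to 1.47, and -0.29 after subtraction of the shift of all genes given below). Gsdme was at 11.1 CPM (297 UMIs) and 9.75 CPM (198 UMIs), a log2 ratio of -0.19 (-0.46 to 0.07). Gsdma2 was at 0 in both libraries, Gsdma3 had 0 and 1 UMIs and Pjvk 1 in each. In P the order of levels was Gsdmd, Gsdme and Gsdmc2, of which the last 2 had overlapping intervals, whereas in D the 3 abundant Gsdmc genes stood above Gsdme and Gsdme above Gsdmd. Gsdmc (0.450 to 1.28 CPM) and Gsdma (0.236 to 0.906 CPM) were below Gsdmd in D by more than counting error. Their intervals overlapped each other. Gsdma2, Gsdma3 and Pjvk were at 0 or 1 UMI.

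**Figure D1:**
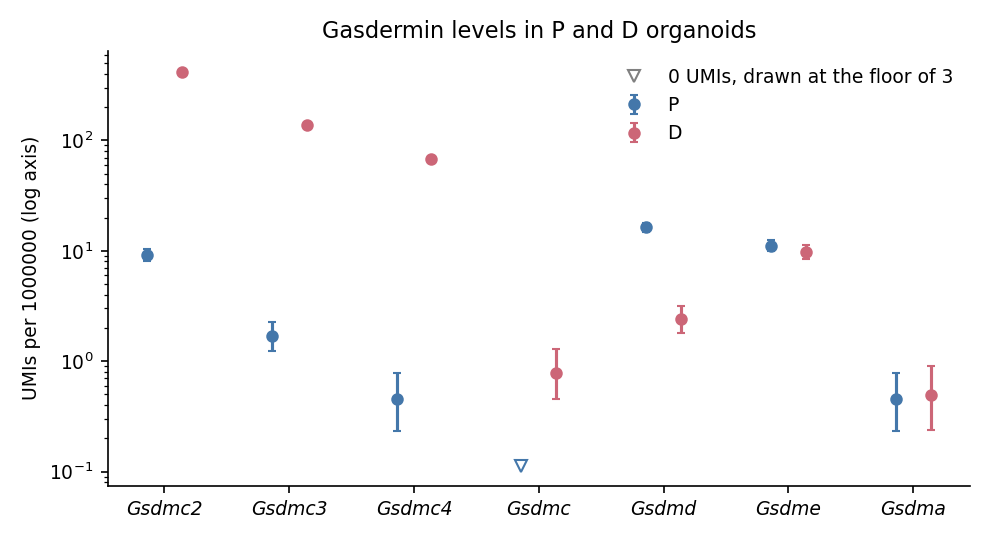
Levels of the gasdermin genes in the proliferative (P) and differentiated (D) library, in CPM on a log axis. Points are the 2 libraries and bars 95% Poisson intervals; a gene with 0 UMIs is drawn as a triangle at the level of 3 UMIs. Gsdmc2 to Gsdmc4 are far higher in D (421, 139 and 67.5 CPM), and Gsdmd is higher in P (16.3 CPM).

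Summed over P and D, 4 members reached 100 UMIs. In D, 3 of these stood 2-fold or more above P, as did 13.5% of the 10719 genes of that depth, and 1 stood 2-fold or more below it, as did 4.73%. The members were chosen with this contrast known, so nothing is read from these counts. Ordered by log2 ratio among those genes, Gsdmc4 stood 11th, Gsdmc3 21st and Gsdmc2 34th from the D end, and Gsdmd 123rd from the P end. Gsdmc2 was the 267th most abundant of all genes in D, Gsdmc3 the 878th and Gsdmc4 the 1968th. The median gene lay 0.42 log2 units higher in D, and relative to that shift the log2 ratios were 5.11 for Gsdmc2, 5.94 for Gsdmc3, 6.81 for Gsdmc4 and -3.18 for Gsdmd. With the scaling that removes the shift, 605 genes were at least 2-fold higher and 927 lower, against 1442 and 507 with the library totals. The share of UMIs from ribosomal protein genes was 37.4% in P against 21.4% in D, and ratios over a total without them are given at the end.

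The mix of the copies differed between the libraries. In P, 81.0% of Gsdmc UMIs (76.1% to 85.3%) were assigned to Gsdmc2, 15% (11.2% to 19.6%) to Gsdmc3 and 4.0% (2.08% to 6.88%) to Gsdmc4. In D the shares were 67.0% (66.2% to 67.8%), 22.1% (21.4% to 22.9%) and 10.7% (10.2% to 11.3%). Over all kept cells Gsdmc2 therefore took less of the sum in D, and Gsdmc3 and Gsdmc4 more, by more than counting error in each case. The intervals treat UMIs as independent, while 22 cells of P held 157 of its 300 UMIs, so those of P may be too narrow. Shares in cells without uroplakin UMIs are given further on.

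How many cells carried the transcripts was compared after each cell was thinned at random to 2100 UMIs, which left 6638 cells in P and 4417 in D (180 and 479 shallower cells were left out). At this depth 1.36% of P cells (1.09% to 1.66%; 90 cells) and 50.6% of D cells (49.1% to 52.0%; 2233 cells) had at least 1 Gsdmc UMI, against 2.10% and 58.5% before thinning at median depths of 3406 and 3228 UMIs. Gsdmc2 was seen in 1.27% and 43.3% of thinned cells (1.97% and 52.5% unthinned), and Gsdmc3 in 0.196% and 18.2% (0.411% and 27.6%). Gsdmc4 was seen in 0.0603% and 9.10% (0.103% and 14.7%). Carriers were thus rare in P and about as common as non-carriers in D. No cell type in these organoids is labelled as lacking Gsdmc, so the part of free RNA in these shares was not tested, and shares in cells marked by other lists are given further on.

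Gsdmd went the other way in its carriers, with a UMI in 3.37% of thinned P cells (2.95% to 3.84%) and 0.317% of D cells (0.173% to 0.531%), or 5.97% and 0.960% unthinned. The D value was the lowest obtained at 1 UMI or more: another random draw gave 3.19% in P and 0.566% in D. Gsdme was seen in 2.56% and 1.81% of thinned cells, Gsdma in 5 and 3 cells, and Gsdmc in 0 and 9.

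Gsdmc transcripts were spread unevenly over D cells. Of thinned D cells 49.4% held 0 Gsdmc UMIs, 20.5% held 1, 12.6% held 2, 14.3% held 3 to 5 and 3.21% held 6 or more, whereas in P 98.6% held 0 and 0.0603% held 6 or more. The variance of UMIs per D cell was 1.90 times the mean for Gsdmc2, 1.56 times for Gsdmc3 and 1.81 times for Gsdmc4, where counts that differ by sampling alone have a ratio near 1. Gsdmd in P had a ratio of 1.02. This ratio also depends on the level, and Gsdmd had 230 UMIs in 6638 thinned P cells. Gsdmc2 had 3658 in 4417 D cells, so these ratios do not compare how evenly the genes were spread. Unthinned, single D cells reached 27 UMIs of Gsdmc2, 21 of Gsdmc3 and 21 of Gsdmc4, and no cell held more than 3 of Gsdmd.

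**Figure D2:**
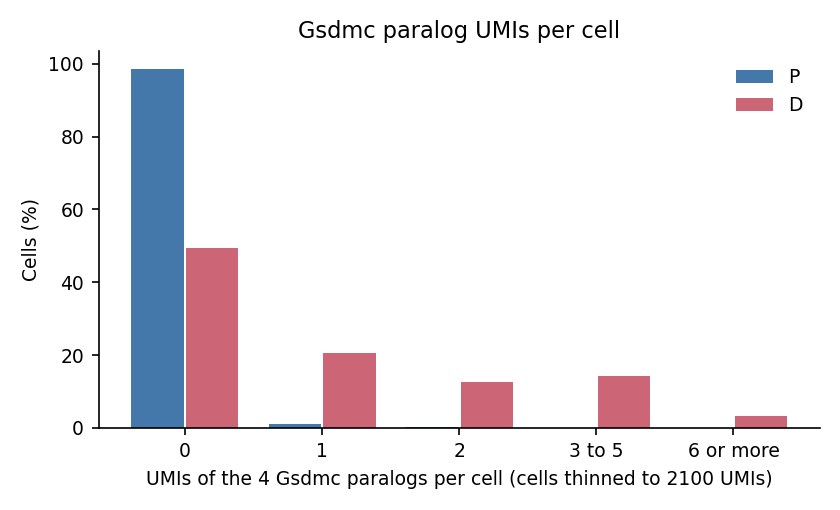
Share of cells, in percent, by the number of UMIs of the 4 Gsdmc genes per cell, after each cell was thinned to 2100 UMIs, in the proliferative (P) and differentiated (D) library. In P 98.6% of cells hold 0 UMIs; in D 49.4% do and 3.21% hold 6 or more.

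The copies occurred in the same D cells more often than the product of their separate shares. Gsdmc2 and Gsdmc3 were seen together in 551 thinned cells, where the product of shares gives 348. Gsdmc2 and Gsdmc4 were together in 299 cells against 174, and Gsdmc3 and Gsdmc4 in 162 against 73.2. All 3 were seen in 125 cells, and 1186 cells showed Gsdmc2 as the only one of them, 216 Gsdmc3 and 66 Gsdmc4. Gsdmc2 and Gsdme were together in 34 cells, where the product gives 34.6, and Gsdmc2 and Gsdmd in 4 against 6.06. These are descriptions of 1 library, in which reads of 1 copy assigned to another would also raise the overlap of the copies.

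In D, Gsdmc levels were higher in cells with more uroplakin UMIs. With thinned D cells split by their summed UMIs of Upk1a, Upk1b, Upk2, Upk3a and Upk3b, the Gsdmc sum was 269 CPM (254 to 285) in the 2051 cells with 0, and 585 CPM (549 to 622) in the 804 cells with 1. It was 848 CPM (807 to 890) in the 913 cells with 2 to 4, and 1156 CPM (1100 to 1215) in the 649 cells with 5 or more. The share of cells with a Gsdmc UMI went from 31.2% through 54.4% and 70.0% to 79.7%, so each step lay above the one before it by more than counting error. The median depth before thinning also went up along these steps, from 3029 through 3468 and 3604 to 4191 UMIs, and its part in the pattern was not tested beyond the thinning.

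Each copy was higher at each further step, with the largest ratio for Gsdmc4. Gsdmc2 went from 211 to 394, 567 and 729 CPM. Gsdmc3 went from 44.8 to 118, 185 and 280 CPM. Gsdmc4 went from 12.3 CPM (9.22 to 16.1) to 71.1, 94.4 and 145 CPM (126 to 167). Its share of Gsdmc UMIs was 4.57% (3.44% to 5.94%) in cells with 0 uroplakin UMIs and between 11.1% and 12.6% in the other 3 steps, while that of Gsdmc2 was 78.5% (76.0% to 80.8%) at 0 and 63.1% (60.6% to 65.5%) at 5 or more. Gsdme stood at 7.43, 6.52, 9.91 and 17.6 CPM along the same steps, and Gsdmd had 6, 3, 5 and 0 UMIs.

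**Figure D3:**
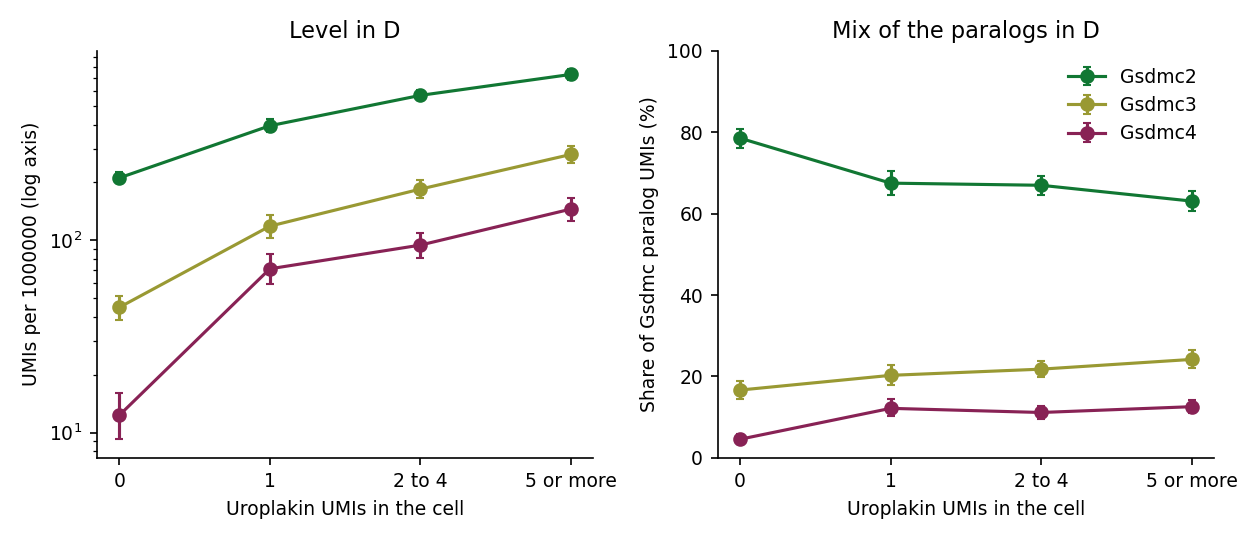
Levels of Gsdmc2, Gsdmc3 and Gsdmc4 in D, in CPM on a log axis, and their shares of Gsdmc UMIs. Cells are grouped by their summed uroplakin UMIs (0, 1, 2 to 4, 5 or more) after thinning to 2100 UMIs. Bars are 95% intervals, Poisson for levels and binomial for shares. Each gene has a higher level at each further step, with Gsdmc4 going from 12.3 to 145 CPM.

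The libraries differed within steps as well. In cells with 0 uroplakin UMIs the Gsdmc sum was 7.0 CPM in P (6467 cells) and 269 CPM in D, a 38.5-fold ratio and a log2 ratio of 5.27 (4.96 to 5.58). The log2 ratio was 3.72 (2.91 to 4.68) at 1 uroplakin UMI, with 129 P cells at 44.3 CPM, and 1.59 (1.0 to 2.26) at 2 to 4, with 39 P cells at 281 CPM. At 5 or more only 3 cells of P remained, and the ratio of 0.86 (-0.49 to 2.74) was not separated from 0 by counting error. The ratio between the libraries was thus smaller at each further uroplakin step, with few P cells beyond the first. Weighted to the makeup of uroplakin steps in P, D cells would average 279 CPM of Gsdmc transcripts against 9.61 in P, a 29.0-fold ratio in place of 60.0-fold over the same thinned cells. For Gsdmc4 the same weighting gave 39.0-fold in place of 166-fold. In cells with 0 uroplakin UMIs the mix of the copies was not separated between the libraries by counting error. There Gsdmc2 took 87.4% of Gsdmc UMIs (79.0% to 93.3%) in P and 78.5% (76.0% to 80.8%) in D. Gsdmc3 took 9.47% (4.42% to 17.2%) and 16.7% (14.6% to 18.9%). Gsdmc4 took 3.16% (0.656% to 8.95%) and 4.57% (3.44% to 5.94%). The P shares rested on 95 UMIs.

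Other marker lists ordered the D cells in ways that overlap with this one. Between the 1124 D cells with at least 3 uroplakin UMIs and the 2051 at 0, Gsdmc2 differed by a log2 ratio of 1.69 (1.57 to 1.80), Gsdmc3 by 2.48 (2.25 to 2.72) and Gsdmc4 by 3.43 (3.01 to 3.88). All 3 tested members were at least 2-fold higher there, where 3.42% of 6543 genes were. Between the 1170 cells with at least 44 UMIs and the 1136 with at most 23 of the basal list (Krt5, Krt14, Krt15, Trp63, Itga6, Itgb4, Col17a1, genes of the layer on the basement membrane), the log2 ratios were -1.59, -2.26 and -2.33. All 3 were at least 2-fold lower in the basal-high cells, where 3.4% of 5472 genes were, and the Gsdmc sum was 274 CPM there against 947 CPM. Along the intermediate list (Krt8, Krt18, Krt7, Krt19, Psca, Cldn4, Cldn7, Foxq1, Klf5) the ratios were 1.84, 2.30 and 4.12, with Gsdmc4 going from 6.23 to 108 CPM. Uroplakin-high, intermediate-high and basal-low cells overlap, so these are not separate observations.

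Along the squamous, proliferation and early response lists the ratios of the Gsdmc copies were smaller. Gsdmc4 alone was 2-fold or more higher, in squamous-high cells, where 0.953% of 6718 genes were. For squamous genes (small proline-rich proteins, cornifelin, involucrin and others) the log2 ratios of Gsdmc2, Gsdmc3 and Gsdmc4 were 0.72, 0.91 and 1.03, and for proliferation genes 0.25, 0.23 and 0.48. For the early response genes that rise on cell dissociation they were 0.02, -0.42 and 0.04. Gsdme in D was 1.08 (0.35 to 1.81) along the uroplakin list and -1.95 (-3.29 to -0.79) along the early response list.

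**Figure D4:**
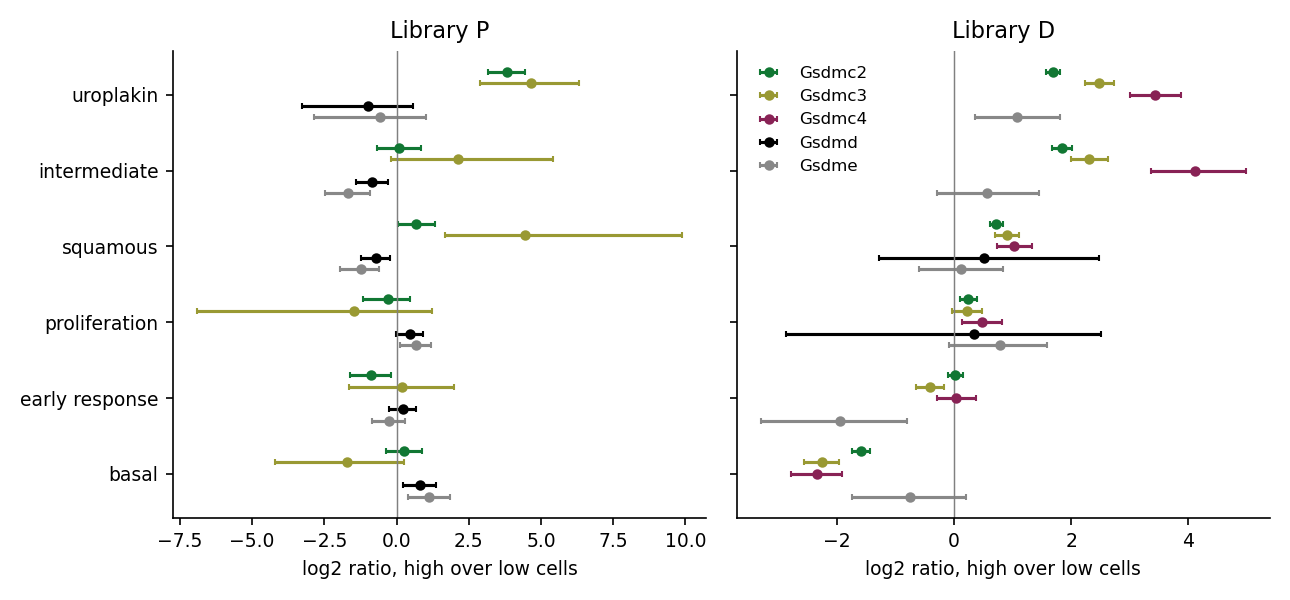
Log2 ratio of gasdermin levels between cells high and low in each marker list, in P and D, thinned to 2100 UMIs, with 95% intervals from an exact conditional binomial calculation; items with under 10 UMIs over both cell groups are not drawn, and the horizontal axes of the 2 panels differ. In D the Gsdmc copies lie right of 0 for the uroplakin and intermediate lists and left of 0 for the basal list; in P Gsdmd lies right of 0 for the basal list.

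Cells with UMIs of the fibroblast or leukocyte list also held Gsdmc UMIs. Dcn gave 1234 of the 1270 fibroblast-list UMIs of D. Of 414 thinned D cells with at least 1 UMI of the fibroblast list, 33.8% (29.3% to 38.6%) held a Gsdmc UMI, and of the 51 with at least 3, 31.4% did (median depths 2975 and 2714 UMIs). The share was 52.3% in the 4003 cells with none (median depth 3435). It was 63.6% in the 151 cells with a leukocyte-list UMI, nearly all of it from Laptm5 (400 of 416 UMIs of the list in D). Whether fibroblast-list cells made the transcripts, held free RNA or were pairs of cells was not tested.

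The few Gsdmc transcripts of P were concentrated in few cells. Of 143 unthinned carriers, 99 (69.2%) held 1 UMI, while the 22 cells with at least 3 held 157 of the 300 UMIs (52.3%), and 16 of these 22 also held a uroplakin UMI. The top 10 cells held 106 UMIs (35.3%), all 10 had between 1 and 16 uroplakin UMIs, and none had a barcode found in both libraries. The highest held 14 UMIs of Gsdmc2 and 3 of Gsdmc3 beside 15 of the uroplakins. These are unthinned counts, and the 10 cells held between 3262 and 14925 UMIs, where the median of kept P cells was 3406. Their mitochondrial shares ran from 6.74% to 11.9%, beside a median of 5.86% in thinned P cells with 0 Gsdmc UMIs. The part of depth in these counts was not tested. After thinning, the Gsdmc sum was 109 CPM in the 171 P cells with a uroplakin UMI and 7.0 CPM in the others, a log2 ratio of 3.96 (3.38 to 4.51). The basal list gave -0.05 in P (-0.62 to 0.51) and the squamous list 1.15 (0.57 to 1.73).

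Genes that accompanied Gsdmc in D were described by comparing the 772 thinned cells with at least 3 Gsdmc UMIs (high carriers) with the 2184 that held none. Their median depths before thinning were 3769 and 3181 UMIs, their genes 1501 and 1341 and their mitochondrial shares 7.52% and 6.33%. Of 6323 genes with at least 100 thinned UMIs, 68 (1.08%) were at least 2-fold higher in high carriers and 136 (2.15%) at least 2-fold lower. These calls use the same cells that the Gsdmc counts selected and carry no test.

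The 6 genes with the largest ratios in high carriers included 4 uroplakin genes. The sorting nexin Snx31 had a log2 ratio of 2.76 (6.54 CPM in non-carriers and 44.4 in high carriers), followed by Phgr1 with 2.58 (19.2 and 115). Next came Upk1b with 2.18 (158 and 717), Upk3a with 2.16 (146 and 651), Upk1a with 2.14 (202 and 888) and Upk2 with 2.08 (15 and 63.5). All 4 tested genes of the uroplakin list were past 2-fold, and a uroplakin UMI was seen in 82.8% of high carriers and 35.4% of non-carriers. Of the intermediate list 2 of 9 were past 2-fold, Krt18 with 1.36 and the surface antigen gene Psca with 1.20. Of the squamous list 2 of 3 were, Sprr1a with 1.32 and Ivl with 1.06, while Krt10 was at -0.97.

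The 6 genes with the lowest ratios included a basal keratin and genes of actin and matrix. The basal keratin gene Krt17 had the lowest log2 ratio, -4.28 (83.9 and 4.32 CPM), followed by the smooth muscle actin gene Acta2 with -3.92 (74.6 and 4.93). The kinase gene Nuak1 and the fibronectin gene Fn1 were both at -3.45, and the matrix gene Sparc and the growth factor gene Ptn both at -3.43. Of the basal list 4 of 7 were at least 2-fold lower, Krt14 with -2.06, Col17a1 with -1.64, Trp63 with -1.34 and Itgb4 with -1.07, whereas Krt15 stood at 0.10. A fibroblast-list UMI was seen in 5.18% of high carriers and 12.5% of non-carriers.

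In P the 90 thinned carriers were set against the 6548 other cells, and 8.61% of 7905 genes were at least 2-fold higher, many on few UMIs. The highest were Clu, the gene of the secreted chaperone clusterin, with a log2 ratio of 3.35 (55 UMIs in carriers; 28.6 and 291 CPM), and Cxcl15 with 2.90 on 13 UMIs. Serpinb6b (2.79), Rfc5 (2.39), Hsd17b11 (2.39) and A430105I19Rik (2.25) rested on 8 to 12 UMIs in carriers. A uroplakin UMI was seen in 13.3% of carriers (7.08% to 22.1%; 12 cells) and 2.43% of the others (2.07% to 2.83%).

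In P, Gsdmd was higher in cells with more basal UMIs. It was at 21.1 CPM in the 1689 cells with at least 23 basal UMIs and 12.2 CPM in the 1720 with at most 10, a log2 ratio of 0.80 (0.24 to 1.37). The ratio was -0.84 (-1.41 to -0.29) along the intermediate list, from 22.0 to 12.3 CPM, and -0.71 (-1.23 to -0.21) along the squamous list. Gsdme in P had the same signs, with 1.11 (0.40 to 1.86), -1.67 (-2.49 to -0.92) and -1.24 (-1.94 to -0.59). Along the proliferation list Gsdmd was at 0.47 (-0.01 to 0.93) and Gsdme at 0.66 (0.12 to 1.18). The 2 genes shared 7 thinned P cells, where the product of their shares gives 5.74.

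The lower level of Gsdmd in D was also seen among cells without uroplakin UMIs, where it was 16.7 CPM in P and 1.39 CPM in D (log2 ratio -3.58, -5.05 to -2.44). It rested there on 6 UMIs of D, and another random draw, with 12 UMIs, gave 2.78 CPM in D and a log2 ratio of -2.52 (-3.49 to -1.69). In D a Gsdmd UMI was seen in 1 of 772 high carriers of Gsdmc (0.130%, 0.00328% to 0.720%) and in 9 of 2184 non-carriers (0.412%, 0.189% to 0.781%), with overlapping intervals.

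The genes around the gasdermins were taken from 6 lists of 42 genes, of which 29 had at least 100 UMIs over both libraries and 7 were at 0 in both. Of these 29, 5 stood 2-fold or more above P in D, and 5 stood 2-fold or more below, 17.2% each, beside 13.5% and 4.73% of all genes of that depth. The median log2 ratio of the 31 list genes with at least 20 UMIs was 0.15, beside 0.39 for all 12904 genes of that depth. With the scaling that removes the shift of the median gene, 3 were higher (Naip5, Naip6 and Il18) and 6 lower, since Casp8 and Naip2 were then short of 2-fold and Pycard passed it.

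Among the proteases that cut gasdermins, Casp8 was at 18.6 CPM in P and 37.3 CPM in D (log2 ratio 1.0) and Casp4, which encodes the mouse sensor of intracellular lipopolysaccharide, at 37.9 and 17.5 CPM (-1.11). Casp1 had 6 and 3 UMIs, the granule proteases Elane and Gzmb were at 0, and Ctsg had 0 and 1. Casp8 was thus higher in D and Casp4 lower, with log2 ratios of 0.58 and -1.54 relative to the shift of all genes. With 1 library in each group, no link of these proteases to the gasdermin levels was tested.

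Among sensors and the adaptor, Naip2, Naip5 and Naip6, which encode receptors of bacterial flagellin and secretion needles, were 2-fold or more higher in D. Naip5 was at 7.87 and 73.2 CPM (3.22), Naip6 at 14.3 and 89.5 CPM (2.65) and Naip2 at 3.30 and 7.63 CPM (1.21, and 0.79 relative to the shift of all genes). Naip1 had 47 UMIs in P and 39 in D (0.12, -0.53 to 0.77). Naip genes are near copies too, so the split among them is uncertain. Their partner Nlrc4 had only 3 UMIs in P and 7 in D, Nlrp3, Nlrp6, Nlrp1a and Mefv were at 0, and Nlrp1b had 0 and 1. Aim2, a sensor of DNA in the cytosol, was at -0.26 (-0.64 to 0.12). Nlrp10 was lower in D, at 9.56 and 2.02 CPM (-2.24), and the adaptor gene Pycard was at 416 and 276 CPM (-0.59).

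Of the cytokines that leave through membrane pores, Il18 was at 28.1 CPM in P and 160 CPM in D (2.50), and Il1a at 19.1 and 1.38 CPM (-3.79). Il1b was at 0, Il33 had a ratio of -0.00 and Hmgb1 one of 0.32. The cytokine genes thus differed in direction, Il18 being higher in D and Il1a in P. Of the genes of membrane rupture and repair, Ninj1 was at -0.02 and the ESCRT genes between 0.11 and 0.71, none past 2-fold. In necroptosis, another route of death by loss of membrane integrity, Ripk3 was at 8.36 and 2.02 CPM (-2.05) and Mlkl, which encodes its membrane effector, at 14.9 and 3.20 CPM (-2.22), while Ripk1 was at 0.73 and Zbp1 had 8 and 20 UMIs. The regulator genes Irf1 (-0.23), Irf2 (-0.21), Stat6 (0.62), Il4ra (0.07) and Il13ra1 (0.08) stayed short of 2-fold.

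**Figure D5:**
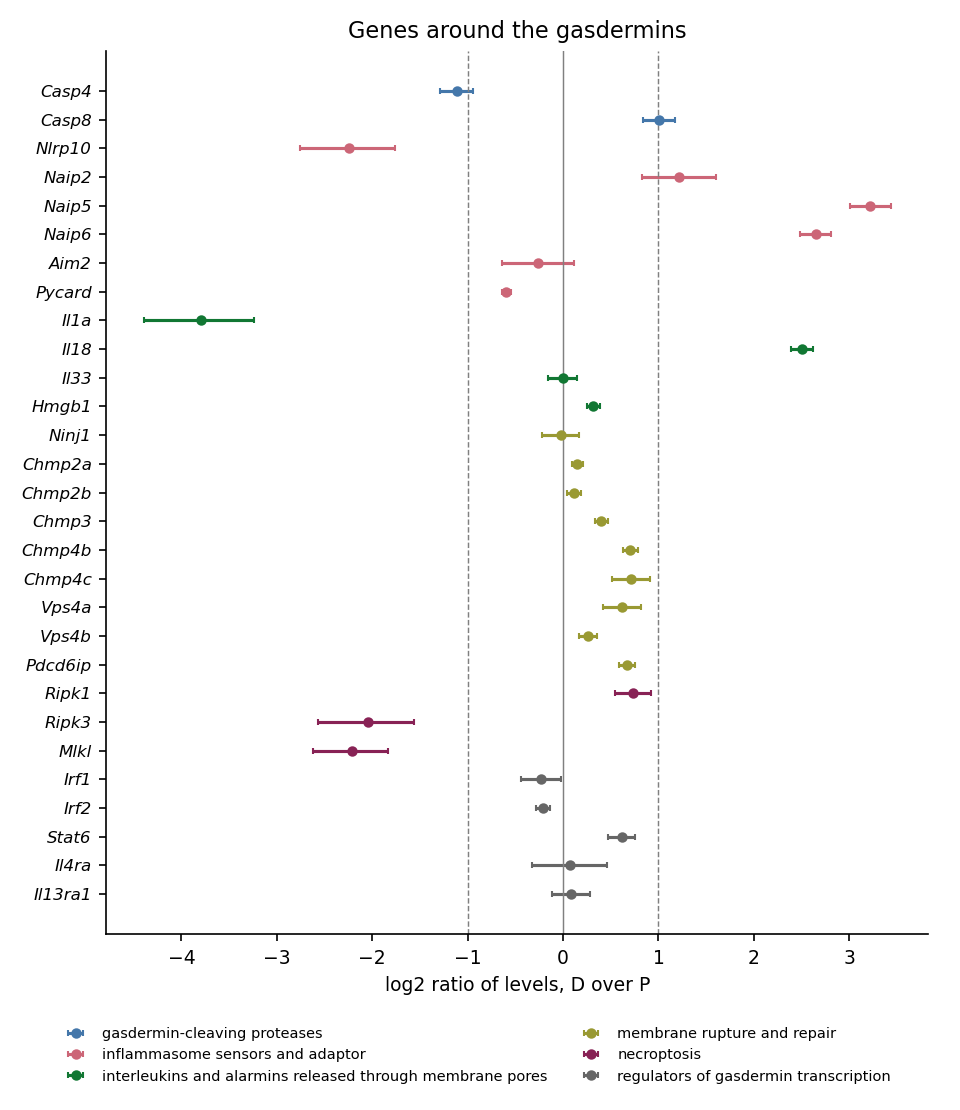
Log2 ratio of levels, D over P, for the 29 genes of the 6 lists around the gasdermins that had at least 100 UMIs, with 95% intervals and dashed lines at 2-fold. Naip5 (3.22), Naip6 (2.65) and Il18 (2.50) lie farthest to the right, and Il1a (-3.79) farthest to the left.

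The lists were also read between high carriers and non-carriers of Gsdmc in D. Of 21 list genes with at least 100 thinned UMIs, 0 were at least 2-fold higher or lower, beside 1.08% and 2.15% of all genes, so a count of 0 in 21 is near the background. The highest were Naip6 with a log2 ratio of 0.77, Naip5 with 0.61 and Casp8 with 0.53, and the lowest was Casp4 with -0.68. Il18 was at 0.44 and Pycard at -0.25.

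Neighbours of the Gsdmc copies had smaller ratios between the libraries. Within 500 kb of the copies 24 genes are annotated, 14 are in the gene list and 5 had at least 100 UMIs, the 3 abundant copies and 2 others. Fam49b, 16.8 kb from Gsdmc4, was at 39.8 CPM in P and 58.1 CPM in D (log2 ratio 0.55, 0.43 to 0.67), and Asap1, 175 kb away, at 23.9 and 16.7 CPM (-0.52, -0.71 to -0.33). Both were short of 2-fold.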

How the data were processed

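Per the labels and the study's methods, dissociated organoid cells were loaded on a 10x Chromium controller with version 3 chemistry of the 3′ kit and sequenced on a NextSeq500. The submitters' processing notes name bcl2fastq 2.19.0, Cell Ranger 3.0.2 and the builds GRCm38 and mm10. The authors deposited, for each library, raw UMI counts by gene and barcode, not normalized. Columns of per-sample values without a sample numbered 0.

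Cells with over 800 genes and at most 12% mitochondrial UMIs were kept (6818 in P, 4896 in D), and with at least 800 genes the numbers were 6826 and 4896. Kept cells held 26681469 UMIs in P and 20305621 in D. Counts were summed over kept cells and divided by the library total (CPM). Cells were thinned to 2100 UMIs for shares, marker lists and carriers (random seed 1). Levels have exact Poisson, shares Clopper-Pearson and ratios conditional binomial 95% intervals; they cover counting error only. Against 0 UMIs a floor of 3 counts was used. A gene was called at a 2-fold ratio and at least 100 UMIs; no test was made, since each group is 1 library. No doublet caller was run, and the alternative without the 5% of cells with the most UMIs stands in for it. Sequence identity came from MAFFT 7.526 alignments of coding sequences of the GRCm38 annotation. Python 3.11.15 with numpy 2.4.6, scipy 1.17.1, pandas 2.3.3 and matplotlib 3.10.9 was used, and the code was tested on simulated data.

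The members and lists were chosen with earlier results of these data known. Of the genes first listed, 1 was taken out of the lists and is not reported here. The genes named come from the members, the other gasdermins, the list genes, the 6 highest and 6 lowest genes of high carriers in D, the 6 highest of carriers in P, and neighbours within 500 kb; marker genes outside that rule were named after their values were seen. Alternatives were other totals, other cell filters, other thinning depths, a minimum of 2 UMIs, other splits of the marker lists and, added after seeing the data, another random draw.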

Additional observations from a re-analysis of the deposited data

Results flagged for a closer look

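Barcodes that the cell filter left out of D held more Gsdmc transcripts than the kept cells. Per 1000000 non-mitochondrial UMIs, the 2079 barcodes left out held 1146 (1101 to 1193) Gsdmc UMIs, against 677 (665 to 688) in kept cells. The value was 1148 in the 298 barcodes over 12% mitochondrial UMIs and 1145 in the 1781 barcodes with at most 800 genes. Gsdmc4 did not share this, at 53.1 in barcodes left out and 72.7 in kept cells. In P the 1376 barcodes left out held 29.6 (22.5 to 38.2) against 12 in kept cells, with 151 (109 to 204; 42 UMIs) in the 94 over 12% mitochondrial UMIs and 9.92 in those with at most 800 genes. These barcodes are not in the levels given above and enter only the alternatives with a looser filter or all barcodes, where the log2 ratio of the Gsdmc sum was 5.71 and 5.73. The part of damaged cells or free RNA was not tested.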

How the results depend on the processing

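No paired analysis was possible because each group holds 1 library. Of 104 values under alternatives, 75 stayed within the counting interval of the reported value (counts of genes within 1.5 times) and 29 did not. Signs changed in 3 values whose intervals include 0, 2 for Gsdma and 1 for the basal list in P (-0.05 and 0.14). The log2 ratio of the Gsdmc sum, 5.80, was 5.47 with a total without mitochondrial and ribosomal genes and 5.38 with median-ratio scaling. The share of D cells with a Gsdmc UMI, 50.6%, was 58.5% unthinned, 42.0% at 1500 UMIs, 62.3% at 3000, 30.0% with at least 2 UMIs and 49.0% without the 5% of cells with the most UMIs. That of P, 1.36%, was 2.10%, 1.06%, 1.94% and 0.331% under the first 4 of these. The uroplakin log2 ratio of the Gsdmc sum in D, 1.98, was 1.45 when cells were split at the median, 1.70 at 1500 UMIs and 1.88 with another random draw, and the basal ratio, -1.79, was -1.22 when split at the median. The 204 genes past 2-fold in high carriers of D, 136 of them lower, were 131 and 79 when 1 UMI made a carrier. The share of D cells with Gsdmd, 0.317%, was 0.566% with another draw. Over all alternatives the log2 ratio ran from -0.29 to 0.53 for Gsdma, from 6.81 to 8.22 for Gsdmc4 and from -3.18 to -2.66 for Gsdmd. With 1 library a group, the differences between P and D and any difference between the cultures cannot be told apart.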
